A study of Homo sapiens with 2 samples.

Results

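The aldo-keto reductases are a family of enzymes, and 10 of its genes were followed on 8 arrays of 2 drug resistant ovarian carcinoma lines. The genes were AKR1A1, AKR1B1, AKR1B10, AKR1C1, AKR1C2, AKR1C3, AKR1C4, AKR1D1, AKR7A2 and AKR7A3, and their members on the array were all probes carrying one of these gene names. Of the 10 genes, 9 had a probe under their own name, 15 probes in all, among the 30238 gene names of the array. No probe was named AKR1C2.

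Aldo-keto reductases use NADPH to reduce aldehydes and ketones to alcohols. Their substrates include sugars, steroids, prostaglandins and the reactive aldehydes left by lipid peroxidation, and several of them also reduce carbonyl groups of drugs such as the anthracyclines. The AKR1C genes encode closely related hydroxysteroid dehydrogenases that lie side by side on chromosome 10, and in many epithelial cells they belong to the targets of NRF2, the transcription factor of the response to oxidants.

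A2780 is a human ovarian carcinoma line. A2780CBN was selected from it in rising doses of carboplatin up to 22.2 µM, and A2780CBNDXL in carboplatin and docetaxel together (the labels and the methods differ on the dose reached, and none is given here). The cells were selected as populations rather than picked as clones. RNA of each line was hybridized on 4 arrays against RNA of a control labelled A2780CC, which is A2780 kept in culture without drug beside the resistant line. The methods state that each line had a control of its own. RNA of 3 isolations was pooled for each labelling, so each line was 1 sample, and the 4 arrays were technical repeats, of which 2 slides each held a forward and a reverse labelled one. The SD between arrays therefore covers labelling and hybridization, no test across cultures was possible, and a higher level in all cells could not be told apart from more cells with a high level.

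The share of spots well above background was 59.8% to 67.5% per channel. Of 12 markers of ovarian epithelial carcinoma on the array, 6 were well above background in both channels of all 8 arrays, among them PAX8, KRT8 and KRT18, and 4 were not so anywhere, namely WT1, MSLN, MUC16 and CDH1. PTPRC of leukocytes and PECAM1, CDH5 and KDR of endothelium were not well above background on any array, whereas CD3E, CD14, COL1A1 and DCN were so on all. All samples were cultures of A2780 or of lines selected from it, and what gave the CD3E, CD14, COL1A1 and DCN signals was not tested.

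The results turned on AKR1C3 and AKR1C1, whose probes resemble each other. The AKR1C3 probe lay at chr10:5137789-5137848 and the brightest AKR1C1 probe at chr10:5008064-5008123, both on the plus strand of NCBI36, the build of the files. The sequences of the array files are shown for these probes and for the AKR1D1 probe at chr7:137448984-137449043 and the AKR1A1 probe at chr1:45807404-45807463, which align with them. Capitals mark the bases that match the AKR1C1 probe in the AKR1C3 probe, and the bases that match the AKR1C3 probe in the other sequences.
AKR1C3: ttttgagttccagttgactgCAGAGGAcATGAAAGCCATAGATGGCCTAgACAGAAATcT
AKR1C1: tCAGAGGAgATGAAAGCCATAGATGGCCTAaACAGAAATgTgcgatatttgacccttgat
AKR1D1: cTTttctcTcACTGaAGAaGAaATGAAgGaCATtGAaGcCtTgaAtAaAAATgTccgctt
AKR1A1: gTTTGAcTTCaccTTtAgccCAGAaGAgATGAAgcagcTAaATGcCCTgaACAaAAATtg

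The probes of AKR1C3 and AKR1C1 overlapped by 41 bases, of which 37 were identical (90.2%), with an unbroken shared run of 21 bases. The AKR1D1 probe matched the AKR1C3 probe at 33 of 54 bases (61.1%) and the AKR1A1 probe at 37 of 60 (61.7%), with no shared run longer than 7 and 6 bases. No other pair of probes of different members shared a run longer than 9 bases. Probes were compared with probes and not with whole transcripts. Probes placed at different parts of related transcripts share little sequence, so a short run does not show that a probe is specific. Signal that one AKR1C transcript gives on the probe of another was not tested and cannot be separated here from signal of its own transcript. Of the 4 AKR1C1 probes, 3 were annotated with AKR1C2 transcripts as well, so values under the name AKR1C1 are those of AKR1C1 or AKR1C2. The fourth AKR1C1 probe, at chr10:4985037-4985096, listed no RefSeq transcript.

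Under a common rule AKR1C3 was called in both lines, with opposite signs, and most of the members that could be judged were called in neither. A gene was called when the mean log2 ratio of resistant line over control at its brightest probe was at least 1 in size, with the same sign on all 4 arrays, and when at least one channel of the probe was well above background on each array. In A2780CBN, 5 members could be judged, of which 1 was called lower (AKR1C3) and 0 higher. Over all 17949 genes judged in that line, 4.57% were called lower and 8.01% higher. In A2780CBNDXL, 6 members could be judged, of which 2 were called higher (AKR1C1 and AKR1C3) and 0 lower, against 7.72% of 17121 genes called higher and 9.24% called lower. The median log2 ratio of the judged members was 0.03 in A2780CBN and 0.51 in A2780CBNDXL, beside -0.06 and 0.04 over all genes judged. The member medians are not comparable between the lines. AKR1C1, at 2.51, was judged only in A2780CBNDXL, where its resistant channel was well above background on all 4 arrays. With normexp background correction and loess in place of the processed signals, the call of AKR1C3 in A2780CBN was lost at a log2 ratio of -0.17 and that of AKR1C1 in A2780CBNDXL at 0.69, while AKR1C3 in A2780CBNDXL stayed called at 1.01. Requiring both channels above background also ended the first 2 of these calls. AKR1C3 was among the genes that the study itself picked from these arrays for follow-up.

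**Figure D1:**
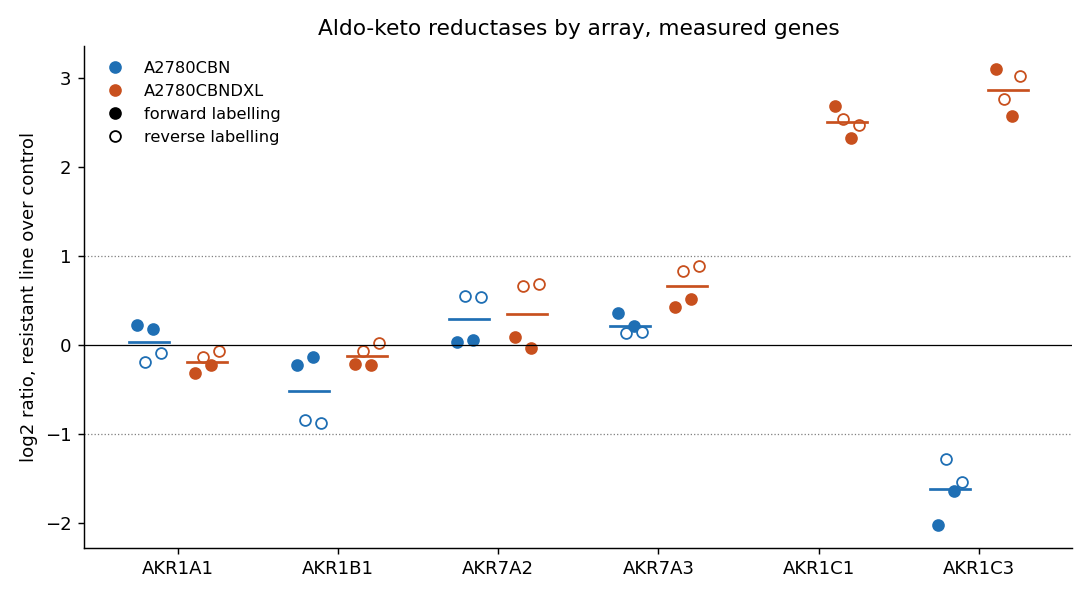
Log2 ratio of resistant line over control for the members that could be judged, at the brightest probe of each gene. Each point is 1 array, filled for forward and open for reverse labelling, lines are means of 4 arrays and dotted lines mark the 2-fold limit. AKR1C3 lay below -1 on all arrays of A2780CBN and above 2 on all arrays of A2780CBNDXL, and AKR1C1 is drawn for A2780CBNDXL only, since it was not well above background in A2780CBN.

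AKR1C3 encodes a hydroxysteroid dehydrogenase that makes testosterone from androstenedione and also acts as a prostaglandin F synthase. In A2780CBN its processed signals were 15.1, 20.7, 17.1 and 22.1 in the resistant line on arrays 1 to 4, and 61.0, 50.2, 53.5 and 64.0 in the control. The line and its control did not overlap, the control was well above background on 4 of 4 arrays and the resistant line on 0. The log2 ratios were -2.02, -1.28, -1.64 and -1.54, with a mean of -1.62 (SD of 4 arrays 0.31). Since the line was not well above background, a bound is given for the mean of the 4 arrays. On that mean the control was at least 2.50-fold higher in AKR1C3 than the line. The floor was the lowest signal that was well above background on each array. The bound holds for the processed signals only, and with normexp and loess the log2 ratio was -0.17.

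In A2780CBNDXL the same probe gave the opposite sign. Its signals were 359, 415, 405 and 424 in the resistant line and 41.7, 61.1, 67.9 and 52.0 in the control, well above background in both channels on all 4 arrays. The log2 ratios were 3.10, 2.76, 2.58 and 3.02, with a mean of 2.87 (SD of 4 arrays 0.24), or 7.30-fold. The lowest array of A2780CBNDXL lay above the highest of A2780CBN by more than the whole range within either line. The mean was 2.84 with forward and 2.89 with reverse labelling, and 2.93 on slide 1 and 2.80 on slide 2.

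AKR1C1 encodes a hydroxysteroid dehydrogenase that inactivates progesterone, and AKR1C2 one that inactivates dihydrotestosterone. At the brightest AKR1C1 probe the signals in A2780CBNDXL were 206, 245, 188 and 215 in the resistant line and 32.0, 42.1, 37.6 and 38.8 in the control. In the control the signal was well above background on 3 arrays of 4. The log2 ratios were 2.68, 2.54, 2.33 and 2.47, with a mean of 2.51 (SD of 4 arrays 0.15), or 5.68-fold.

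The other AKR1C1 probes gave ratios of the same direction in this line. The probe at chr10:5009910-5009969 had a mean log2 ratio of 2.48 (SD of 4 arrays 0.35), and the one at chr10:4995636-4995695 a mean of 2.08 (SD 0.55). The one at chr10:4985037-4985096, which lists no RefSeq transcript of AKR1C1 or AKR1C2, had a mean of 2.55 (SD 0.08). In the resistant line all 4 probes were well above background on every array, with mean signals from 74.2 to 213. In the control the first of these 3 probes was well above background on 3 arrays and the other two on 1 each, so that their ratios give the direction and are uncertain in size. In A2780CBN none of the 4 probes was well above background in either channel on any array, and no ratio is given.

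**Figure D2:**
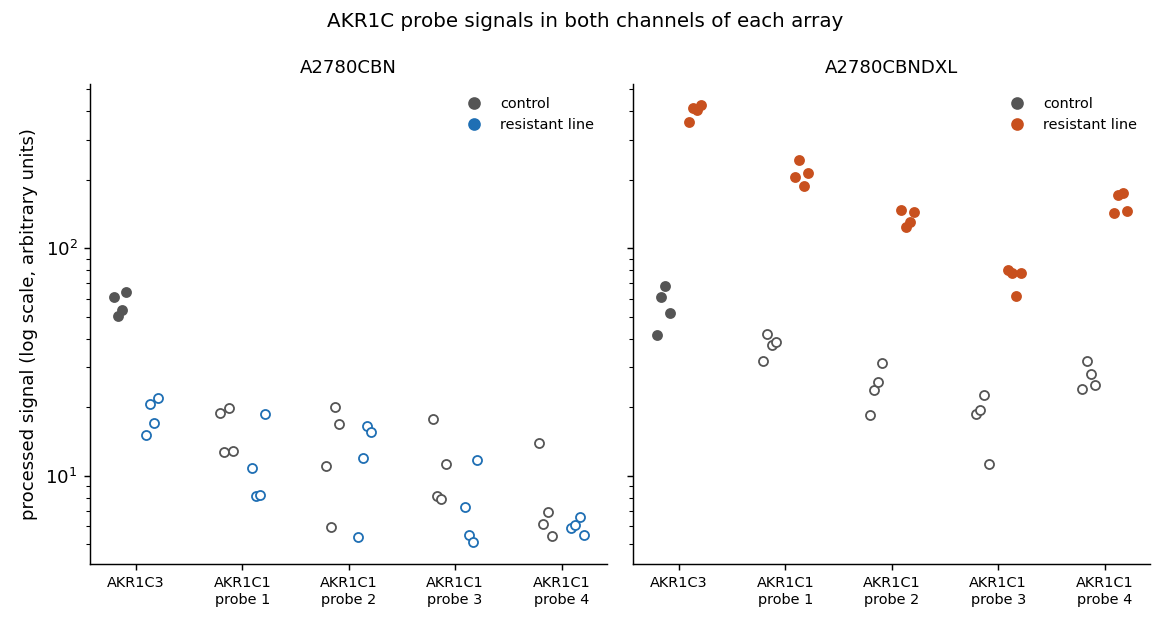
Processed signal of the AKR1C3 probe and the 4 AKR1C1 probes on each array, on a log axis, for A2780CBN (left) and A2780CBNDXL (right). AKR1C1 probes 1 to 4 start at 5008064, 5009910, 4995636 and 4985037 of chromosome 10, and points are filled where that channel was well above background on all 4 arrays. The resistant line stands above its control at all 5 probes in A2780CBNDXL and below it at AKR1C3 in A2780CBN, and levels of different probes are not comparable.

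AKR1C4, the hydroxysteroid dehydrogenase of the liver, completed the cluster. Its probe spanned chr10:5236427-5237749, across an intron, and was not well above background in either channel of any array, with signals from 4.94 to 7.17. A change of AKR1C4 was not detectable at this signal.

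The lines were also compared with each other, and so were their controls, from channel signals scaled between arrays and paired by slide and dye. AKR1C3 was higher in A2780CBNDXL than in A2780CBN on all 4 pairs, by 4.66, 4.16, 4.39 and 4.23 on the log2 scale. With A2780CBN not above background this was at least 16.7-fold. AKR1C1 was higher by 4.24, 4.63, 4.29 and 3.48, or at least 8.96-fold, with A2780CBN again not above background. Both bounds are for the mean of 4 pairs, hold for the processed signals only and were not recomputed with normexp. These 2 members were called in this comparison and both were higher in A2780CBNDXL, beside 6.47% of 17083 genes called higher there and 10.1% called lower. No other member that could be judged differed by more than 0.51 in its mean, which was the value of AKR7A3.

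Between the controls, 0 members were called, beside 3.17% of 16875 genes called higher and 1.44% called lower in the control of A2780CBNDXL. AKR1C3 differed between the controls by -0.46, 0.12, 0.17 and -0.33 on the log2 scale, with a mean of -0.12 (SD of 4 pairs 0.32). The control levels of AKR1C3 thus overlapped, while the lines lay on either side of them. AKR1C1 could not be judged under the rule, because its probe was not well above background in the control of A2780CBN on any array and was so in that of A2780CBNDXL on 3. Its processed control signals, before scaling between arrays, were 18.9, 12.7, 19.8 and 12.8 in the former and 32.0 to 42.1 in the latter, which do not overlap. In the scaled pairs AKR1C1 was higher in the control of A2780CBNDXL by 0.76, 1.45, 0.70 and 1.55 on the log2 scale. The size is uncertain, since the control of A2780CBN was not above background.

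AKR1A1 encodes aldehyde reductase, which reduces glucuronate and many aliphatic aldehydes. Its brightest probe was far above background, with mean signals near those of the control in both lines. On arrays 1 to 4 the log2 ratios of A2780CBN were 0.22, -0.18, 0.18 and -0.09, and those of A2780CBNDXL were -0.31, -0.14, -0.22 and -0.07. The means were 0.03 (SD of 4 arrays 0.20) and -0.18 (SD 0.11). The probe at chr1:45804860-45804919 gave means of -0.02 and -0.10.

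AKR1B1 encodes aldose reductase, which turns glucose into sorbitol in the polyol pathway. In A2780CBN its log2 ratios were -0.23, -0.84, -0.13 and -0.87, a mean of -0.52 (SD of 4 arrays 0.39). The mean was -0.18 with forward and -0.86 with reverse labelling, so that the size of this ratio went with the dye. In A2780CBNDXL the values were -0.21, -0.07, -0.23 and 0.02, with a mean of -0.12 (SD 0.12). AKR1B1 was called in neither line.

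AKR1B10, a reductase of retinal and aliphatic aldehydes in the gut, and AKR1D1, the steroid reductase of bile acid synthesis in the liver, were not well above background. This held for both probes of each gene in both channels of all 8 arrays. Signals of the AKR1B10 probes ran from 4.06 to 12.2 and those of the AKR1D1 probes from 4.51 to 19.8. No ratio is given for them.

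AKR7A2 and AKR7A3 encode the aflatoxin aldehyde reductases, of which AKR7A2 also reduces succinic semialdehyde. The AKR7A2 ratios in A2780CBN were 0.04, 0.55, 0.05 and 0.54, and in A2780CBNDXL 0.10, 0.66, -0.03 and 0.69. In both lines the forward arrays lay near 0 and the reverse arrays above 0.5, with means over both of 0.30 (SD of 4 arrays 0.29) and 0.35 (SD 0.37). The sign thus held on 4 arrays in A2780CBN and on 3 in A2780CBNDXL, and the 2-fold limit was not reached in either.

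AKR7A3 was above its control on all 8 arrays, without reaching the limit. The log2 ratios of A2780CBN were 0.36, 0.14, 0.21 and 0.15 and those of A2780CBNDXL 0.43, 0.83, 0.52 and 0.89, with means of 0.22 (SD of 4 arrays 0.10) and 0.67 (SD 0.23). Its probe shared a run of 18 bases with that of AFARP1, a pseudogene of the family, whose mean log2 ratios were 0.22 (SD 0.08) and 0.62 (SD 0.29). Which transcript gave the signal was not tested.

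Outside the members, gene lists and neighbours were followed, whose counts stand beside the shares over all genes judged. These shares were 8.01% higher and 4.57% lower in A2780CBN, and 7.72% higher and 9.24% lower in A2780CBNDXL. A list of other names of the superfamily came first. Of 9 names, 5 were on the array. In A2780CBN 3 could be judged and 0 were called in either direction, and in A2780CBNDXL 4 could be judged, of which 1 was called higher and 0 lower. The list median was 0.31 and 0.35. The gene called was AKR1E2, a further aldo-keto reductase gene, 129 kb below the AKR1C1 probe on chromosome 10. In A2780CBNDXL its signals were 238, 469, 516 and 461 in the resistant line and 42.2, 63.5, 92.5 and 88.6 in the control, with log2 ratios of 2.49, 2.89, 2.48 and 2.38 and a mean of 2.56 (SD of 4 arrays 0.22). The control of A2780CBNDXL was well above background on 3 of these arrays. In A2780CBN the line was not so on any array and its control on 3, and AKR1E2 could not be judged there. AKR7L, beside AKR7A3 on chromosome 1, had log2 ratios of 0.31 and 0.48.

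Genes next to the members were taken as those with a probe within 1 Mb. Around the AKR1C cluster 15 named genes were on the array, the truncated reductase transcript tAKR among them. In A2780CBN, of 9 judged, 1 was called higher and 0 lower. In A2780CBNDXL, of 11 judged, 1 was called higher (AKR1E2) and 2 lower. IL15RA, the alpha chain of the interleukin receptor, lay 797 kb above and was called higher in A2780CBN, at 3.09 (SD of 4 arrays 0.30), and lower in A2780CBNDXL, at -1.24 (SD 0.08). C10orf18 was the other gene called lower in A2780CBNDXL, at -1.09 (SD 0.63). The medians over judged neighbours were -0.33 and 0.08. Between AKR1C4 and IL15RA no gene was called higher in A2780CBNDXL.

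**Figure D3:**
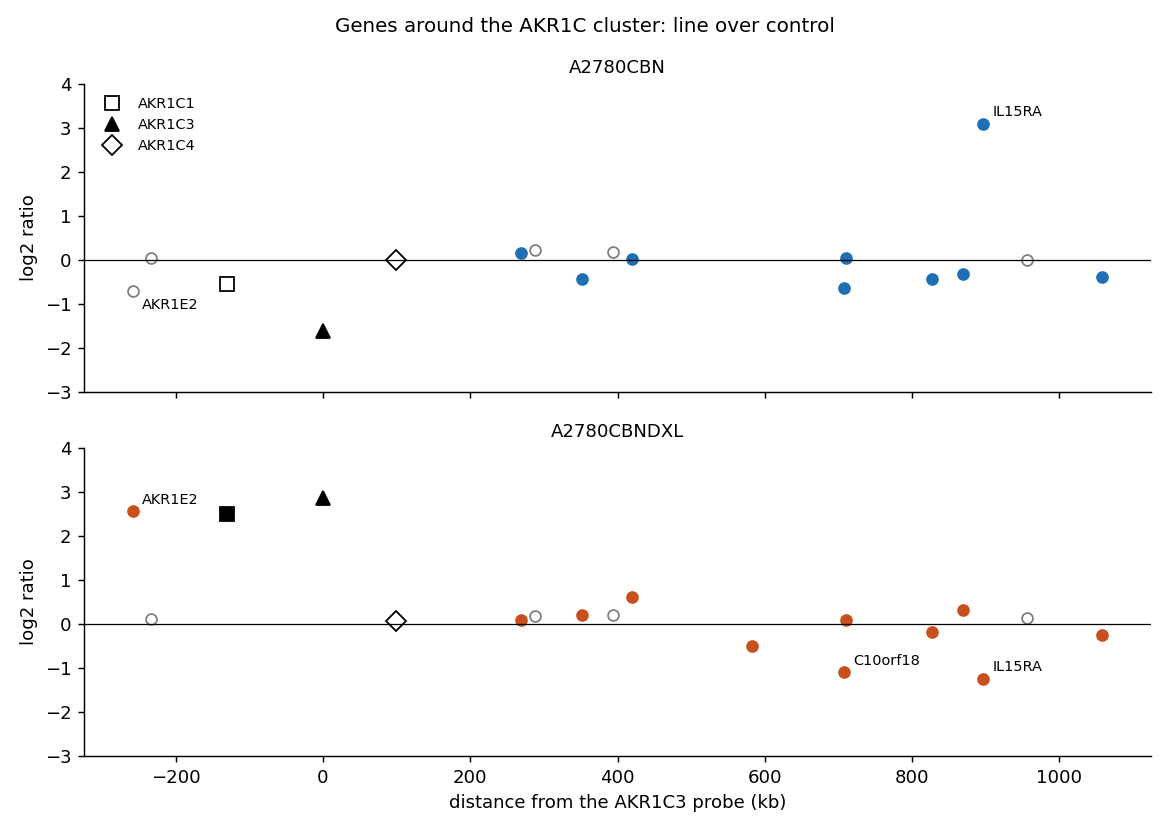
Mean log2 ratio of resistant line over control against the distance of each gene's probe from the AKR1C3 probe in kb, for A2780CBN (top) and A2780CBNDXL (bottom). Black symbols are AKR1C genes, coloured points other named genes, and open symbols genes not judged. AKR1E2, AKR1C1 and AKR1C3 stand at 2.56, 2.51 and 2.87 in A2780CBNDXL while AKR1C4 was not well above background.

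Around AKR1B1 and AKR1B10 on chromosome 7, 0 of 10 neighbours judged in A2780CBN and 0 of 9 in A2780CBNDXL were called. Around AKR1D1, of 5 judged in A2780CBN, 1 was called lower, and of 6 in A2780CBNDXL, 1 was called higher and 2 lower. The gene called lower in both lines was PTN, a secreted growth factor, which was at least 4.95-fold lower in A2780CBN and at -2.22 (SD of 4 arrays 0.42) on the log2 scale in A2780CBNDXL. SVOPL was called higher in A2780CBNDXL at 1.57 (SD 0.30), with its control well above background on 3 arrays, and KIAA1549 lower at -1.36 (SD 0.20). Around AKR1A1 on chromosome 1, 2 of 33 judged were called higher and 0 lower in A2780CBN, and 2 of 29 higher and 1 lower in A2780CBNDXL. TESK2, a kinase gene there, was at 2.06 (SD 0.22) in A2780CBN and -1.12 (SD 0.12) in A2780CBNDXL. Around AKR7A2 and AKR7A3, 1 of 13 judged was called higher and 0 lower in A2780CBN, and 3 of 13 higher and 2 lower in A2780CBNDXL, where TMCO4 had the largest ratio at 2.94 (SD 0.13).

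Other enzymes that reduce carbonyl groups were followed as a list of short-chain dehydrogenase family carbonyl reductases together with the quinone reductases. Of 19 names on the array 18 could be judged in each line. In A2780CBN 0 were called higher and 2 lower, and in A2780CBNDXL 2 higher and 2 lower, with list medians of 0.14 and 0.05. CBR1, which like AKR1C3 reduces anthracyclines and prostaglandins, was called higher in A2780CBNDXL at 1.74 (SD of 4 arrays 0.28) and had a log2 ratio of -0.74 (SD 0.40) in A2780CBN without being called. Its neighbour in the family CBR3 was not well above background in A2780CBN and its control was at least 13.0-fold higher, and CBR3 had 0.92 (SD 0.11) in A2780CBNDXL. DHRS2 was called lower in both lines, at -1.59 (SD 0.22) and -1.94 (SD 0.06). DHRS12 was called higher at 1.36 (SD 0.09) and the quinone reductase NQO2 lower at -1.21 (SD 0.11) in A2780CBNDXL.

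Among steroid dehydrogenases and reductases outside the family, 25 names were on the array. In A2780CBN 3 of 15 judged were called higher and 1 lower, and in A2780CBNDXL 2 of 14 higher and 2 lower, with list medians of 0.26 and 0.06. HSD17B7, which acts in cholesterol synthesis and on estrone, was called higher in A2780CBN at 1.44 (SD of 4 arrays 0.34) and lower in A2780CBNDXL at -1.28 (SD 0.12). HSD17B12, of fatty acid elongation, was called lower in A2780CBN only, at -2.91 (SD 0.25), and had -0.19 (SD 0.16) in A2780CBNDXL, a difference that was not tested. HSD3B7 was called higher in both lines at 1.37 (SD 0.98) and 1.69 (SD 0.79), and HSD17B14 at 1.11 (SD 0.32) and 1.05 (SD 0.53). HSD11B2, which inactivates cortisol, was called lower in A2780CBNDXL at -1.50 (SD 0.45), a size that is uncertain because the line was well above background on 1 array of 4.

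Of the prostaglandin genes, 13 names were on the array, and 6 and 5 could be judged. In A2780CBN 1 was called higher and 0 lower, and in A2780CBNDXL 1 higher, which was CBR1, and 1 lower, with list medians of -0.29 and 0.22. PTGS2, the inducible cyclooxygenase, was at least 3.33-fold lower in A2780CBNDXL and not well above background in A2780CBN. PTGIS, prostacyclin synthase, was at least 2.37-fold higher in A2780CBN. PTGFR, the receptor of the prostaglandin that AKR1C3 makes, was not well above background in either channel of any array. PTGDR, a prostaglandin D receptor, was so on some arrays (at most 3 of 4 in a channel) and could not be judged.

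In the polyol and aldehyde list, which leaves out the members, 9 of 12 names could be judged in each line. In A2780CBN 0 were called higher and 1 lower, and in A2780CBNDXL 0 higher and 3 lower, with list medians of -0.23 and -0.36. SORD, which takes the sorbitol made by AKR1B1 on to fructose, was called lower in A2780CBNDXL at -1.43 (SD of 4 arrays 0.07). The aldehyde dehydrogenase ALDH1A1 was called lower in both lines. Its computed log2 ratios of -4.54 (SD 0.66) and -5.14 (SD 1.10) are uncertain in size, because each resistant line was well above background on 1 array of 4. The mitochondrial ALDH2 was called lower in A2780CBNDXL at -2.21 (SD 0.06).

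The NRF2 list, which leaves out the members, had called genes in both lines. The activity of NRF2, and any part of it in the AKR1C levels, was not tested. Of 26 names, 22 and 21 could be judged. In A2780CBN 1 was called higher and 0 lower, and in A2780CBNDXL 0 higher and 5 lower, with list medians of -0.01 and -0.52. Over all genes judged, 8.01% were called higher and 4.57% lower in A2780CBN, and 7.72% higher and 9.24% lower in A2780CBNDXL. SLC7A11, the cystine transporter, was at least 11.4-fold lower in A2780CBNDXL. HMOX1, heme oxygenase, was at -3.13 (SD of 4 arrays 0.20) there. GCLM and GCLC, the subunits of the enzyme that starts glutathione synthesis, were at -1.83 (SD 0.38) and -1.22 (SD 0.48), and MAFF at -1.78 (SD 0.25). GCLC was also the gene called higher in A2780CBN, at 3.09 (SD 0.42). NQO1, a common readout of NRF2, had -0.04 (SD 0.17) and -0.28 (SD 0.12) and was not called. The study itself reported GCLC as not significantly different in A2780CBNDXL, by its array analysis and by QPCR. AKR1C3 had the opposite sign to GCLC in each line, but not to GCLM, which was at -0.29 (SD 0.20) in A2780CBN. The AKR1C3 sign in A2780CBN came from line signals not well above background, and what these signs reflect was not tested. The core of the antioxidant response element, TGACNNNGC on either strand, was in the promoter window of 1 of the 9 members with a window in the RefSeq table of GRCh38.p14, namely AKR7A2 with 3 matches. The same core stood in 13.3% of 35116 such windows of 300 bases. No match says only that these letters are not in the window.

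**Figure D4:**
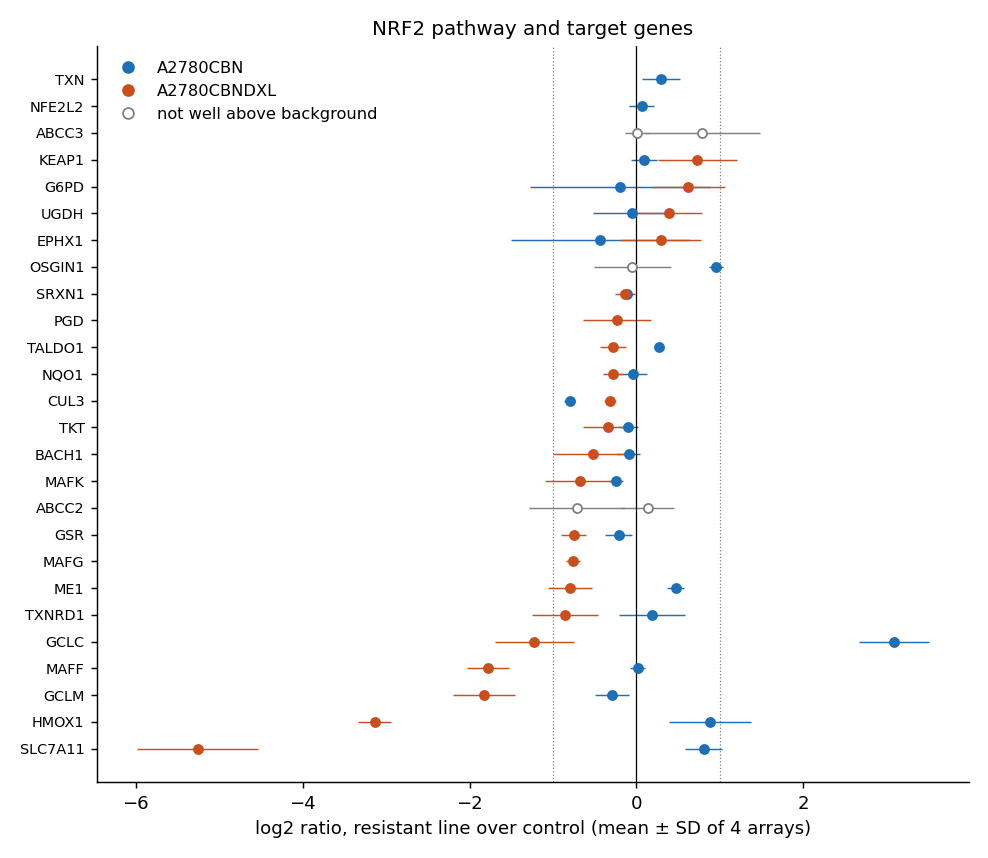
Log2 ratio of resistant line over control for the genes of the NRF2 list, as the mean of 4 arrays with SD bars, with genes in order of their value in A2780CBNDXL. Dotted lines mark the 2-fold limit, open grey points genes not well above background, and a gene has no point where a spot was marked as an outlier on an array. SLC7A11, HMOX1, GCLM, MAFF and GCLC lie below -1 in A2780CBNDXL and GCLC above 3 in A2780CBN.

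The genes most like the called members over the 8 arrays were sought among 11661 named genes judged in both lines, by the Euclidean distance between their log2 ratios. Nearest to AKR1C3 were FGF18, a fibroblast growth factor, at a distance of 0.73, the growth factor receptor PDGFRA at 0.90 and the homeobox gene ALX1 at 1.24. FGF18 had mean log2 ratios of -1.80 and 2.86 in the 2 lines, and PDGFRA -1.85 and 2.90. Nearest to AKR1C1 were the nuclear receptor gene NR1D2 at 0.99, FBLN2 at 1.19 and EPHX2, soluble epoxide hydrolase, at 1.41, with log2 ratios from 2.19 to 2.53 in A2780CBNDXL. The A2780CBN ratios that enter these distances came from AKR1C3 signals not well above background in the resistant line, and from AKR1C1 signals not so in either channel, so that the order of these genes is a description of computed ratios.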

How the data were processed

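The 8 arrays, 4 for each resistant line, were Agilent 4x44k two-colour arrays. The authors deposited scanner output of Agilent Feature Extraction (slide 1 with version 10.7.1.1, slide 2 with 10.7.3.1). The deposited processed intensity of each channel is background-subtracted and dye-normalized within the array, and mean, background and background-subtracted intensities served for alternatives. Deposited flags gave the other unit used, spots well above background or outliers. Dyes of forward arrays come from the labels. Reverse arrays, whose dye labels repeat those of the forward ones, were turned over as their name states, after which log2 ratios of arrays of a line correlated at 0.78 to 0.98.

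Outlier spots were left out, spots of a probe averaged, and log2 ratios averaged within and then over labelling directions. The brightest probe stood for a gene. A gene missing on any array was not judged. Direct comparisons and lower bounds used Aquantile scaling (limma). Each bound is for a mean over 4 arrays or 4 pairs of processed signals, and a single array can lie below it. Bounds were not recomputed with normexp. The members and gene lists were chosen with earlier results of these data known. All members were named, at most 5 called genes of a list by size, and the 3 nearest genes of a called member. Others named were chosen after their values were seen. The NCBI36 genome, protein sequences and A2780DXL arrays were not used here. The number of arrays limits precision. The call rule, the 3-way ANOVA of the methods and limma were tested on simulated data. There every spot counted as well above background, so the background filter and calls that hang on it were not tried. Alternatives were other background corrections, scalings, filters and limits, fewer arrays, ANOVA and limma. Tools were limma 3.58.1 in R 4.3.3, and in Python 3.11.15 matplotlib 3.10.9, scipy 1.17.1, pandas 2.3.3 and numpy 2.4.6.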

Additional observations from a re-analysis of the deposited data

Results flagged for a closer look

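AKR1C3 had opposite signs in the lines on every array, with a mean log2 ratio of -1.62 in A2780CBN and 2.87 in A2780CBNDXL. The difference between the 2 ratios was not tested, since each line was 1 pooled sample. In A2780CBN no array had a line signal well above background, so that these arrays give only the direction and a bound on the mean there. By QPCR the study reported AKR1C3 as lower in A2780CBN and higher in A2780CBNDXL than in the parent line. By immunoblot it found no significant difference in AKR1C3 protein among the resistant lines, with a trend in A2780CBNDXL.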

How the results depend on the processing

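No paired analysis was possible because each line was 1 sample. Of 121 recomputed member ratios, 118 moved by less than the SD of 4 arrays and none changed sign among those called. This count is no measure of robustness. Leaving out arrays, or taking 1 slide or 1 labelling direction alone, cannot move a mean by that SD. The mean over probes cannot change a gene with 1 probe. The 3 ratios that moved further did so under normexp with loess, with an offset of 50, which pulls low signals together. AKR1C3 came to -0.17 in A2780CBN and 1.01 in A2780CBNDXL, and AKR1C1 to 0.69. Under it 0 members were called lower in A2780CBN and 1 higher in A2780CBNDXL, and over all genes 426 higher and 182 lower in A2780CBN (1438 and 821 in the report) and 489 and 688 in A2780CBNDXL (1321 and 1582). With both channels required above background, 0 members were lower in A2780CBN and 1 (AKR1C3) higher in A2780CBNDXL, with 517 and 1019 genes called lower. A 1.5-fold limit gave 2617 genes higher and 2251 lower in A2780CBN and 2806 and 2908 in A2780CBNDXL, and a 3-fold limit 773, 354, 611 and 861. The members called kept their number under both limits, except that 3 were higher in A2780CBNDXL at 1.5-fold, AKR7A3 being the third. Between the controls 1 member, AKR1C1, was called on slide 2 alone and 1, the same, on reverse arrays alone, against 0. Without any single array, 1 member was lower in A2780CBN and 2 were higher in A2780CBNDXL, and ANOVA and limma gave these numbers too. ANOVA and limma took the technical arrays of 1 pooled sample as repeats, so their numbers say nothing about spread between cultures. Signals under background limit AKR1C1 in A2780CBN, AKR1B10, AKR1C4 and AKR1D1.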
